A study of Danio rerio with 12 samples.

Results

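Transcripts of neurotransmitter receptors were followed in the brain of adult zebrafish given synthetic dsRNA, a viral mimic, with or without the choice of a warmer place to swim. The genes were chosen by name alone, as those whose symbol begins as a GABA, glycine, glutamate, serotonin, dopamine, acetylcholine or adrenergic receptor subunit does. Of the 37285 transcript names on the array, 66 genes carried such a symbol, on 94 probes. Of these, 4 are not receptors (grinaa, htra1a, htra1b and htra3a, the last 3 being HtrA serine peptidases) and were kept apart, which left 62 receptor genes on 87 probes. By transmitter there were 14 glutamate, 10 nicotinic acetylcholine, 10 adrenergic, 8 GABA, 7 dopamine, 6 serotonin, 4 glycine and 3 muscarinic acetylcholine receptor genes.

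Whole brains were sampled at 24 h in 4 groups of 9 adult fish, and RNA was pooled from 3 fish for each of the 3 arrays of a group, so that an array stands for a pool. Group C was not injected, Sd was sham-injected with PBS and kept in a thermal gradient, Ti received poly(I:C) and had no gradient, and Td received poly(I:C) and had one. The labels give the dose as 1 mg per kg and the methods a lower one, and the labels place the C fish in the gradient where the methods do not. Beyond adult age, no strain or genotype is given in the sources used here. In treatment, group Sd therefore differs from C by the injection and, by the methods, also by the gradient. Ti differs from Sd by both dsRNA and gradient, and Td differs from Ti by the gradient alone.

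Ionotropic receptors are channels built of several subunits that open when a transmitter binds, and they carry fast signals: excitation through glutamate and nicotinic receptors and, for the most part, inhibition through GABA and glycine receptors. Muscarinic, adrenergic, dopamine and most serotonin receptors instead act through G proteins and tune the activity of whole circuits. In mammals, acetylcholine released by the vagus nerve acts on the alpha7 nicotinic receptor of macrophages and dampens inflammation, a circuit known as the inflammatory reflex, which is why the study looked at nicotinic, muscarinic and adrenergic receptors when it compared Td with Ti.

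Every one of the 3 slides carried an array from each group, always at that group's own position, so that group and position cannot be told apart. Between 6330 and 21900 of the array's 43803 features were well above background, and Ti replicate 3 was the dimmest array. The levels below are log2 of the background-subtracted signal minus the array's 75th percentile, called the scaled signal, and they are compared only within a gene. The series' combined value table holds the Ti and Td columns exchanged against the scanner output and the tables of single samples. The latter assignment was used here, and with the other one every sign of Td minus Ti turns and the comparisons of Ti and of Td with C and Sd trade places.

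Receptor transcripts were faint on these arrays. Of the 62 receptor genes, 25 were well above background on none of the 12 arrays, 10 on 1 or 2 arrays, and 27 on at least 3 arrays, which were tested. Only 4 were above background on all 12 arrays. Among them were gabra4, a GABA-A receptor subunit, gria2b, an AMPA-type glutamate receptor subunit, and grin1a, an NMDA-type glutamate receptor subunit. The tested genes were 7 of the 14 glutamate, 5 of the 10 nicotinic, 5 of the 8 GABA, 3 of the 10 adrenergic, 3 of the 7 dopamine, 2 of the 4 glycine, 1 of the 6 serotonin and 1 of the 3 muscarinic receptor genes.

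How many receptors were detected differed between arrays, broadly with the share of all probes above background. On the C arrays 9, 26 and 20 receptor genes were above background, on the Sd arrays 9, 13 and 14, on the Ti arrays 30, 16 and 4, and on the Td arrays 30, 26 and 29. The range was widest within Ti, from 42.5% of the receptor probes on replicate 1 to 4.60% on replicate 3, where 46.2% and 14.4% of all probes were above background. On each of the 12 arrays the share was smaller among receptor probes than among all probes. The gap was narrow on Td replicate 3, at 39.1% against 40.5%, and the Sd arrays had 12.6%, 17.2% and 20.7% of receptor probes against 25.6%, 29.3% and 31.4% of all probes.

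**Figure D1:**
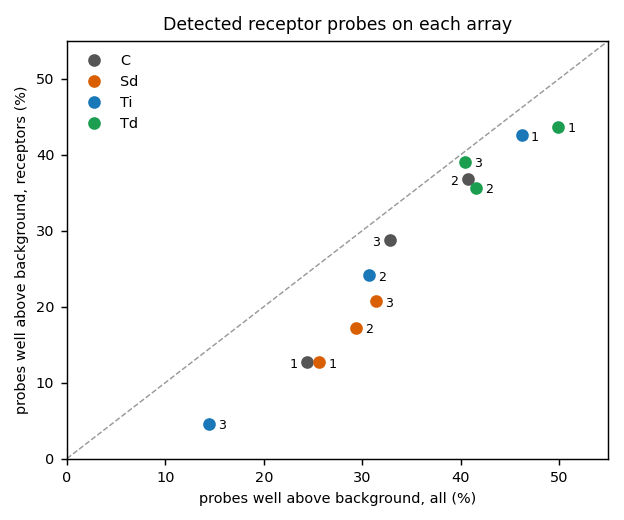
Share of the 87 receptor probes that were well above background against the share of all probes, in percent, with 1 point per array coloured by group and numbered by replicate, and a dashed line of equal shares. All 12 points lie under the line, from Ti replicate 3 at 4.60% of receptor probes to Td replicate 1 at 43.7%.

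The filter has to be kept in mind for every count over the 27 tested genes. Of these, 13 were above background on no Sd array, 3 on no C array and 1 on no Ti array, whereas 22 were above background on all 3 Td arrays. A gene that passed through the other groups while faint in Sd was thereby chosen for being low in Sd, so counts over the 27 genes are given as a description. A count that asks the same of each group was made after the data had been seen, over the 13 receptor genes with a probe above background on at least 2 arrays of each group (among them chrm2a, chrna1, chrna11, chrna5, chrnd, gabra4, gabrb2a, gabrr2a, gabrr3a, glrbb, gria2b and grin1a). This filter shifts differences too: the Ti minus Sd median of all transcripts was -0.26 with it and -0.06 with the main one.

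**Figure D2:**
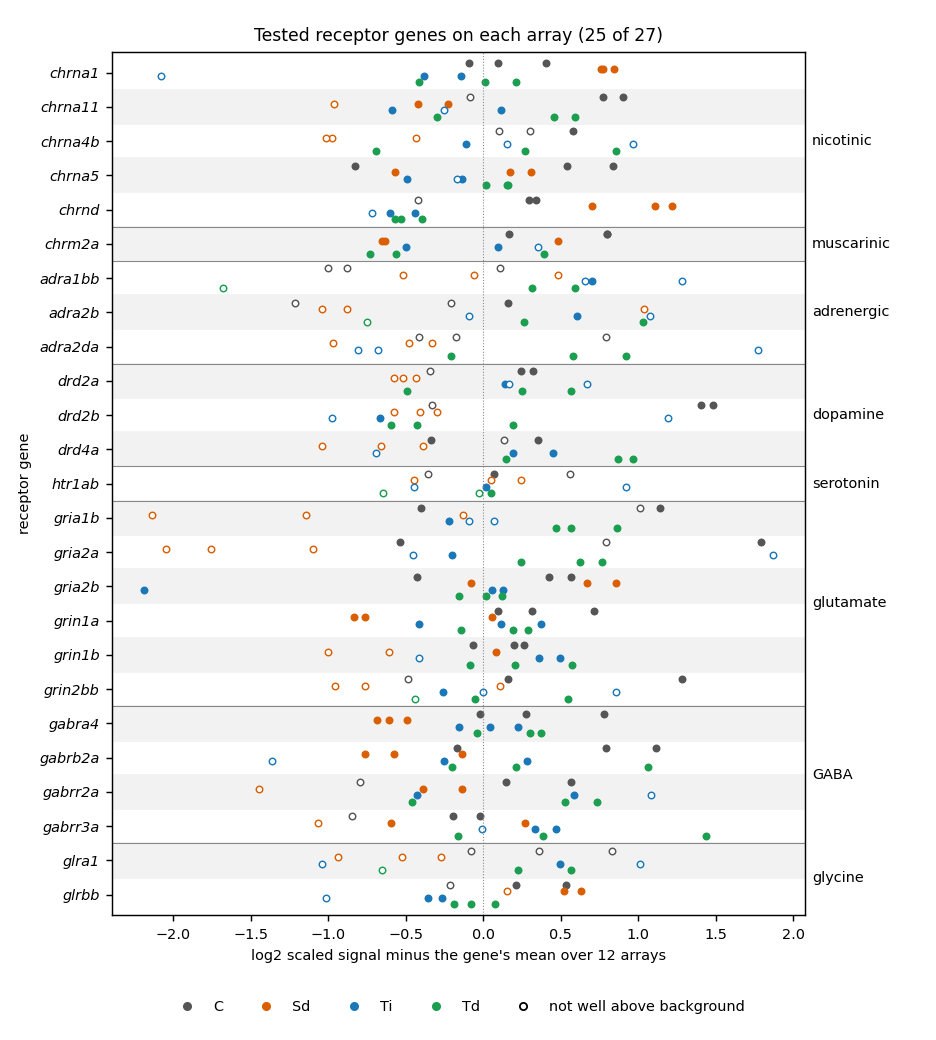
Scaled signal of 25 of the 27 tested receptor genes on each of the 12 arrays, on a log2 scale and minus the gene's own mean, by transmitter, with groups in colour and open points where the gene was not well above background. The 3 Sd points lie to the right of all others for chrnd and chrna1 and to the left of all others for gabra4 and gria2a.

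Among the nicotinic receptors, which are pentamers gated by acetylcholine, the clearest difference lay in chrnd, the delta subunit of the receptor at the neuromuscular junction. The scaled signal of chrnd was -0.10, 0.62 and 0.66 on the C arrays, 1.03, 1.54 and 1.43 on the Sd arrays, -0.28, -0.12 and -0.40 on the Ti arrays, and -0.25, -0.07 and -0.21 on the Td arrays. All 3 Sd arrays lay above the other 9, and the 6 Ti and Td arrays lay between -0.40 and -0.07. It was the 1 receptor gene of 27 with an adjusted p under 0.05 in the test over the 4 groups (limma, adjusted p = 0.0371), where 2.3% of the 16136 transcripts tested were called. That call held in 6 of 11 other settings, among them the exchange of the Ti and Td arrays, which leaves this test unchanged. It held in 2 of 12 fits that each left out 1 array, those without C replicate 1 or Ti replicate 3. Between Ti and Sd, chrnd was 3.03-fold lower in Ti (log2 difference -1.60 ± 0.29 SE, n = 3 arrays a group, adjusted p = 0.0312), again the 1 gene called of 27, against 0.979% of all transcripts. Between Td and Sd the difference was of much the same size, -1.51 ± 0.29, with an adjusted p of 0.0691 in limma that rested above the threshold. It passed in 3 of 11 other settings (slide as a block, array weights and exchanged arrays). The last of these is the comparison of Ti with Sd above under exchanged labels, and adds nothing to it. With 1 array left out, Td minus Sd passed in 1 of 12 fits, that without Ti replicate 3. The call between Ti and Sd was lost when the arrays were scaled to the 50th percentile, quantile normalized, background-corrected with normexp or tested with no filter on dim probes. With the values of the combined table it was lost too, but there the Ti columns hold the Td arrays. It was also lost when Sd replicate 2 or 3, any Ti replicate, or Td replicate 2 or 3 was left out, and the adjusted p reached 0.139 without Sd replicate 2.

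Alongside it, chrna1, the alpha subunit of the same muscle-type receptor, had a scaled signal of 0.60, 0.78 and 1.09 on the C arrays, 1.46, 1.44 and 1.53 on the Sd arrays, 0.54, 0.30 and -1.39 on the Ti arrays, and 0.27, 0.70 and 0.89 on the Td arrays. The Sd arrays again lay above the other 9, and Ti replicate 3, on which chrna1 was not above background, lay far below the rest. Between Ti and Sd the difference was -1.66 ± 0.45 SE (limma, adjusted p = 0.11), and without Ti replicate 3 it was -1.05. In all, 2 of the 27 receptor genes had all 3 Sd arrays above the other 9, against 2.9% of all transcripts, and both were subunits of the muscle-type receptor.

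Most skeletal muscle markers were, like both subunits, lower in Ti and Td than in Sd. Of 12 tested muscle markers, all 12 were lower in Ti than in Sd (median log2 difference -1.14, all transcripts -0.06). At an unadjusted p under 0.05, 10 were lower, against 8.53% of all transcripts. In Td, 11 were lower than in Sd (median -0.95, all transcripts 0.10), 5 of them at that threshold, against 3.67%. Against C, 12 were lower in Ti (median -0.80) and 11 in Td (median -0.75). In each, 5 passed that threshold, against 5.99% and 3.46%. Their summed scaled level on the linear scale ran from 818 to 1474 on the C arrays, 1125 to 2120 on the Sd arrays, 737 to 836 on the Ti arrays and 738 to 840 on the Td arrays. Of the 12 markers, 10 were above background on all 12 arrays. Between Sd and C, 7 were higher and 5 lower. The skeletal actin acta1a alone passed the adjusted threshold (1.75 ± 0.43 SE, limma, adjusted p = 0.0471), where 3.7% of all transcripts passed. That call held in 4 of 10 other settings, among them the exchange of Ti and Td, which leaves Sd minus C unchanged. With 1 array left out, it held only without C replicate 2 or Ti replicate 3. The part of muscle RNA in the levels of chrnd and chrna1 was not tested, and in whole tissue a change in the number of cells of a type and a change in RNA per cell cannot be told apart.

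**Figure D3:**
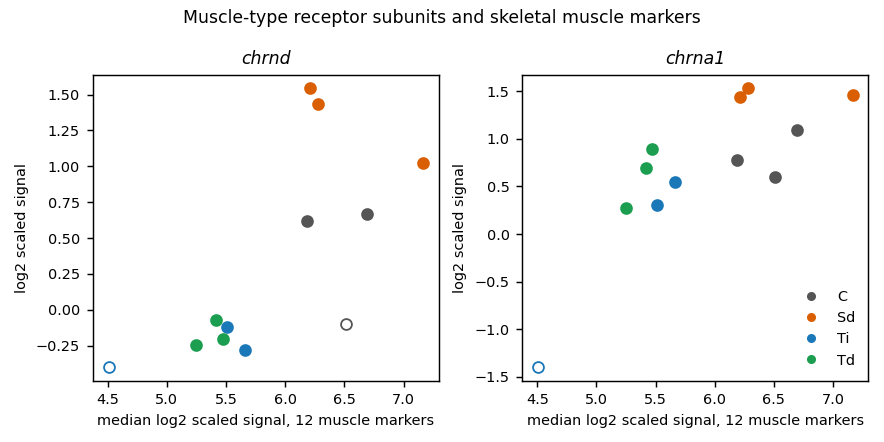
Log2 scaled signal of chrnd and of chrna1 on each array against the median log2 scaled signal of 12 skeletal muscle markers, with groups in colour and open points where the gene was not well above background. The Ti and Td arrays lie at marker medians of 4.51 to 5.66, the C and Sd arrays at 6.19 to 7.17, and the 3 Sd points are the uppermost in both plots.

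Other nicotinic subunits did not share this order. For chrna11, a nicotinic alpha subunit gene, the scaled signal was -0.44, 0.42 and 0.55 in C, -1.31, -0.77 and -0.58 in Sd, -0.94, -0.24 and -0.60 in Ti, and -0.65, 0.11 and 0.24 in Td. The Sd arrays lay below the C arrays on every slide, by 0.88, 1.19 and 1.13. The difference Sd minus C was -1.07 ± 0.38 SE (limma, adjusted p = 0.132), and with the slide as a block the adjusted p was 0.0356. For chrna4b, whose mammalian counterpart forms the main high-affinity nicotinic receptor of the brain together with a beta subunit, the values were -1.50, -1.22 and -1.69 in C, -2.23, -2.77 and -2.81 in Sd, -1.91, -1.65 and -0.83 in Ti, and -2.49, -1.53 and -0.94 in Td. It was above background on no Sd array, on 1 C array, on 1 Ti array and on 3 Td arrays. Sd minus C had an adjusted p of 0.147 in limma and Ti minus Sd one of 0.217, and no fold is given, since most values of these groups were not above background. The sign of Ti minus Sd turned with normexp.

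The accessory subunit gene chrna5, which joins other subunits rather than binding the transmitter on its own, showed no order of the groups. Its values were -0.90, 0.47 and 0.76 in C, -0.64, 0.24 and 0.10 in Sd, -0.56, -0.21 and -0.24 in Ti, and -0.05, 0.09 and 0.08 in Td. The 3 Td arrays lay just above the 3 Ti arrays, by 0.38 ± 0.42 SE on average (limma, adjusted p = 0.869), and the interval of that difference ran from -0.54 to 1.29. The alpha7 gene chrna7a, the counterpart of the receptor of the inflammatory reflex, was above background on Td replicates 2 and 3 and on no other array, as was chrna10a, and neither was tested. No second copy of the alpha7 gene was matched to a probe here, and chrna2a, chrna6 and chrnb3b were above background on no array.

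Of the muscarinic receptors, chrm2a, which lowers cyclic AMP through an inhibitory G protein, was the 1 gene tested. Its scaled signal was 0.70, 0.07 and 0.70 on the C arrays, 0.38, -0.75 and -0.73 on the Sd arrays, 0.00, -0.59 and 0.26 on the Ti arrays, and 0.30, -0.66 and -0.83 on the Td arrays. On each slide the C array was the highest of the 4, while the ranges of all groups overlapped. The difference Td minus C was -0.89 ± 0.43 SE (limma, adjusted p = 0.353) and Td minus Ti was -0.28 ± 0.43 SE (adjusted p = 0.901). The other muscarinic genes, chrm5a and chrm5b, were above background on no array.

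Adrenergic receptors, which bind adrenaline and noradrenaline, were close to background throughout. For adra1bb, of the alpha1 class that acts through Gq, the values were -2.39, -3.51 and -3.38 in C, -2.56, -3.02 and -2.02 in Sd, -1.80, -1.85 and -1.22 in Ti, and -1.91, -4.18 and -2.19 in Td. The 3 Ti arrays lay above the other 9, though only 1 of them and no C array was above background, so that no fold is given (Ti minus C, limma, adjusted p = 0.240). In all, 1 of the 27 receptor genes had all 3 Ti arrays above the other 9, against 0.855% of all transcripts.

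The alpha2 receptors, which act through an inhibitory G protein and dampen release of noradrenaline, spread widely within groups. The scaled signal of adra2b was -2.19, -1.82 and -3.19 in C, -0.94, -2.86 and -3.02 in Sd, -1.37, -2.07 and -0.90 in Ti, and -0.95, -2.73 and -1.71 in Td. That of adra2da was -2.53, -2.77 and -1.56 in C, -2.68, -2.83 and -3.32 in Sd, -3.16, -3.03 and -0.58 in Ti, and -2.56, -1.78 and -1.43 in Td. It was above background on the 3 Td arrays and on no other, so it passed the filter through Td alone. Its highest value was on Ti replicate 3, and its level in Td is given as a description alone. Of the other adrenergic genes, adra2a, adra2c and adrb2a were each above background on Ti replicate 1 and Td replicate 1 alone, which were the arrays with the most features above background.

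Dopamine receptors with values to test all belonged to the D2-like class, which acts through inhibitory G proteins. For drd4a the scaled signal was -0.48, -0.26 and -0.95 in C, -1.66, -1.0 and -1.27 in Sd, -0.16, -0.42 and -1.31 in Ti, and -0.47, 0.35 and 0.25 in Td. The Td arrays lay above the Sd arrays on every slide, by 1.19, 1.35 and 1.53. The mean of Td was 2.56-fold above that of Sd by measured signal (limma, adjusted p = 0.154), which leaves aside the spread between arrays. For drd2a, the values were -1.97, -1.38 and -1.31 in C, -2.20, -2.15 and -2.06 in Sd, -1.49, -1.46 and -0.96 in Ti, and -2.12, -1.38 and -1.06 in Td.

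Neither drd2a, drd2b nor drd4a was above background on any Sd array. The Sd arrays lay below all Ti arrays for drd2a, and the 2 probes of that gene differed in the sign of Td minus Ti, at 0.21 and -0.64. The values of drd2b were -0.63, 1.18 and 1.1 in C, -0.72, -0.61 and -0.88 in Sd, -0.97, -1.28 and 0.88 in Ti, and -0.73, -0.90 and -0.11 in Td. On C replicates 2 and 3 it was brighter than on any other array, while on C replicate 1 it was not above background. With all C arrays averaged, C was 2.43-fold above Sd by measured signal (limma, adjusted p = 0.239), which leaves aside the spread between arrays. The D1-like gene drd1b and drd3, drd4b and drd4-rs were above background on no array.

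The serotonin receptors gave the least. Of 6 genes, 5 were above background on no array, and htr1ab, of the 5-HT1A type that acts through an inhibitory G protein, had values from -2.47 to -1.55 in C, -2.56 to -1.87 in Sd, -2.56 to -1.19 in Ti and -2.76 to -2.06 in Td. These ranges overlapped in all 6 comparisons, whose log2 differences ran from -0.37 (Td minus Ti) to 0.21 (Ti minus Sd).

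By measured signal, the glutamate receptors held the widest differences between Sd and C. Those were in genes above background on no Sd array, so their true sizes cannot be ranked. For gria2a, a subunit of the AMPA receptor, the scaled signal was -0.60, -1.93 and 0.41 on the C arrays, -2.48, -3.15 and -3.44 on the Sd arrays, -1.59, -1.84 and 0.49 on the Ti arrays, and -0.62, -1.15 and -0.76 on the Td arrays. The 3 Sd arrays lay below the other 9, and gria2a was above background on none of them and on 2 of the C arrays. In the main fit it was at least 2.58-fold lower in Sd than in C (limma, adjusted p = 0.0773). It was at least 2.35-fold higher in Td than in Sd (adjusted p = 0.185). Sd minus C passed in 2 of 10 other settings, with an adjusted p of 0.0439 with the slide as a block. Over the main fit and these settings its log2 difference ran from -2.86 to -0.65. That of Td minus Sd ran from 0.82 to 2.69, so the bounds are those of the main fit. Only 1 Ti array was above background, and the log2 difference Ti minus Sd of 2.04 (adjusted p = 0.172) was 1.31 without Ti replicate 3. Its interval for Td minus Ti ran from -1.32 to 1.60.

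Another AMPA subunit gene, gria1b, was also above background on no Sd array. Its values were -0.23, -1.64 and -0.10 in C, -2.39, -1.37 and -3.38 in Sd, -1.46, -1.33 and -1.17 in Ti, and -0.68, -0.77 and -0.38 in Td. The Td arrays lay above both the Sd and the Ti arrays, while C replicate 2 fell among the Sd arrays. Between Td and Sd it was at least 2.72-fold higher in Td (limma, adjusted p = 0.165), a direction that turned when dim probes were not filtered. The gria2a paralogue gria2b gave another picture, with 0.44, 1.30 and 1.44 in C, 0.79, 1.54 and 1.73 in Sd, 0.93, 1.00 and -1.32 in Ti, and 0.72, 0.99 and 0.89 in Td. The Sd and C arrays overlapped (Sd minus C 0.30 ± 0.57 SE, limma, adjusted p = 0.812), and the 3 probes of gria2b differed in sign, at 0.30, -0.39 and -1.28. Whether the paralogues differed in their change was not tested.

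For the NMDA receptor subunit gene grin1a, measured on all 12 arrays, all Sd values lay below all C values. Its scaled signal was 3.73, 3.95 and 4.35 in C, 2.81, 3.69 and 2.88 in Sd, 3.22, 4.01 and 3.75 in Ti, and 3.49, 3.83 and 3.93 in Td, with Sd minus C at -0.89 ± 0.34 SE (limma, adjusted p = 0.159). The gap was small on slide 2, at -0.26, and wide on slide 3, at -1.47. The paralogue grin1b and grin2bb, a subunit that binds glutamate, had differences Sd minus C of -0.64 and -0.85, with groups that overlapped. The metabotropic receptors, of which grm3, grm6a and grm6b were on the array, were at most above background on 1 array.

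Among the GABA receptor subunits, gabra4 had a narrow spread. Its scaled signal was 2.19, 1.90 and 2.70 on the C arrays, 1.23, 1.31 and 1.42 on the Sd arrays, 1.76, 1.96 and 2.14 on the Ti arrays, and 2.22, 1.87 and 2.29 on the Td arrays. The Sd arrays lay below the other 9 and the other groups overlapped. The difference Sd minus C was -0.94 ± 0.29 SE, a 1.92-fold lower level (limma, adjusted p = 0.0879), Ti minus Sd was 0.63 (adjusted p = 0.290) and Td minus Sd was 0.81 (adjusted p = 0.246). In all, 2 of the 27 receptor genes, gabra4 and gria2a, had all 3 Sd arrays below the other 9, against 3.86% of all transcripts. When only transcripts above background on all 12 arrays were tested, gabra4 was called in Sd minus C (adjusted p = 0.0486), as were 6.25% of those transcripts.

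**Figure D4:**
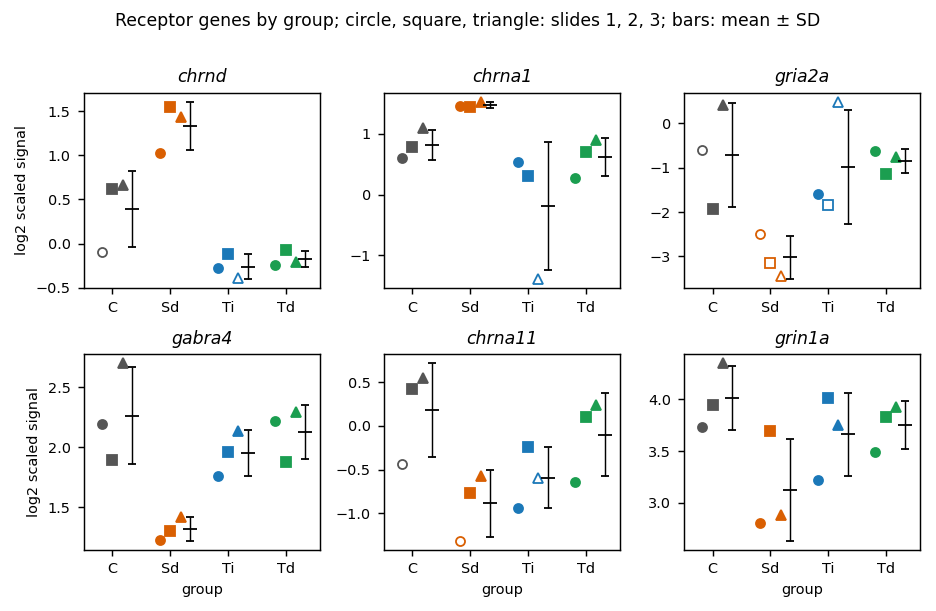
Log2 scaled signal of 6 receptor genes by group, with 1 point per array, its shape giving the slide, open where the gene was not well above background, and bars for the mean ± SD of 3 arrays. The Sd arrays are the highest for chrnd and chrna1 and the lowest for gria2a and gabra4, while for chrna11 and grin1a they lie below the C arrays and overlap those of Ti.

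The beta subunit gene gabrb2a was 1.07 lower in Sd than in C on the log2 scale, with an SE of 0.50 and groups that overlapped by 1 array (limma, adjusted p = 0.237). The rho subunit genes gabrr2a and gabrr3a, best known from the retina, had differences Sd minus C of -0.63 and -0.11. For gabrr3a the scaled signal was -1.25, -0.42 and -0.59 in C, -1.47, -0.13 and -0.99 in Sd, -0.06, 0.07 and -0.41 in Ti, and -0.56, 1.04 and -0.01 in Td. The Ti arrays lay above the C arrays by 0.62 ± 0.46 SE (limma, adjusted p = 0.548), a direction that was gone with the arrays scaled to the 50th percentile.

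Glycine receptors bring fast inhibition to the spinal cord and hindbrain. For glrbb, the beta subunit that binds the anchoring protein gephyrin, the scaled signal was -0.37, 0.38 and 0.06 in C, 0.00, 0.37 and 0.48 in Sd, -0.42, -0.51 and -1.17 in Ti, and -0.34, -0.08 and -0.24 in Td. The 3 Ti arrays lay below the other 9, the 1 receptor gene of 27 for which this held, against 0.954% of all transcripts, and on Ti replicate 3 it was not above background. The difference Ti minus Sd was -0.98 ± 0.31 SE (limma, adjusted p = 0.163) and Ti minus C was -0.72 ± 0.31 SE (adjusted p = 0.289). For glra1, an alpha subunit above background on no C or Sd array, no fold is given between those groups.

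Set against the rest of the array, receptor genes were more often low than high in Sd. Over the 13 genes measured in every group, 10 were lower in Sd than in C, with a median log2 difference of -0.63, where 39.3% of the 9413 transcripts kept in the same way were lower and their median was 0.17. This filter keeps fewer probes, so a gene's value can differ from that given above. For gria2b, Sd minus C was -0.05 here, counted as lower, and 0.30 above. Of the 13, 5 were lower and 1 higher at an unadjusted p under 0.05, against 6.8% and 15.2% of those transcripts. Against Sd, 8 of the 13 were higher in Ti (median 0.25, all transcripts -0.26) and 9 in Td (median 0.63, all transcripts 0.05). Against C, 11 of the 13 were lower in Ti (median -0.60, all transcripts -0.08) and 10 in Td (median -0.22, all transcripts 0.18). No receptor gene had its 3 C arrays all below or all above the other 9, against 4.32% and 0.787% of all transcripts, nor its 3 Td arrays, against 0.403% and 0.843%. These comparisons share the C or the Sd arrays and are therefore not separate pieces of evidence.

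Over all 27 tested genes the counts were 21 lower and 6 higher for Sd minus C, with a median of -0.66 against 0.07 for all transcripts. No receptor gene was called at an adjusted p under 0.05 in that comparison by limma, where 3.7% of all transcripts were, and 2 were called with the slide as a block (chrna11 and gria2a), where 7.26% of all transcripts were. The share of 3.7% fell to 0 with the 50th percentile, normexp or no filter, and without Sd replicate 2. Without C replicate 3, 4 transcripts were called. At an unadjusted p under 0.05, 7 genes were lower and 1 higher, against 8.92% and 12.9% of all transcripts. The groups did not overlap for 9 genes that were lower and 2 that were higher, against 11.4% and 16.8%. Among the non-overlapping lower genes were gria2a, gabra4, chrna11, chrna4b, grin1a, drd4a, glra1 and drd2a. Of these, gria2a, chrna4b, drd4a, glra1 and drd2a were above background on no Sd array, and glra1 on no C array either. Such genes passed the filter only through other groups, so these counts and their shares are a description. The receptor median minus that of all transcripts was -0.73 and kept its sign in 12 settings. These count the main fit and the exchange of Ti and Td, which leaves Sd minus C unchanged. The median shrank to -0.06 with normexp background correction, which compresses faint signals. With no filter 36 of the 62 genes were higher and 26 lower, where 26.4% of all transcripts were lower. The median there was 0.23 for the receptor genes and 0.37 for all transcripts.

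Against the sham group, 22 of 27 genes were higher in Ti and 20 in Td, with medians of 0.66 and 0.63 where all transcripts had -0.06 and 0.10, although relative to all transcripts the median for Td turned to -0.03 with normexp. At an unadjusted p under 0.05, 5 were higher and 3 lower in Ti, against 8.43% and 8.53% of all transcripts, and 6 were higher and 1 lower in Td, against 9.72% and 3.67%. Groups did not overlap for 5 higher and 3 lower genes in Ti, against 9.52% and 10.9%, and for 6 higher and 3 lower genes in Td, against 16.7% and 7.68%. In Td minus Sd no receptor gene was called by limma, where 0.26% of all transcripts were. Against C, 17 of 27 genes were lower in Ti and 17 in Td, with medians of -0.28 and -0.18 where all transcripts had 0.00 and 0.18. There, too, none was called by limma, where 1.23% and 1.46% of all transcripts were. In Ti minus C, adra1bb was higher and glrbb, chrnd and chrna1 were lower at an unadjusted p under 0.05, against 9.95% and 5.99% of all transcripts, with groups that did not overlap for these 4 and for gabrr3a, against 10.8% and 6.94%. In Td minus C no receptor gene passed it, against 11.8% and 3.46%, and no gene had groups without overlap, against 18.7% and 4.49%.

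**Figure D5:**
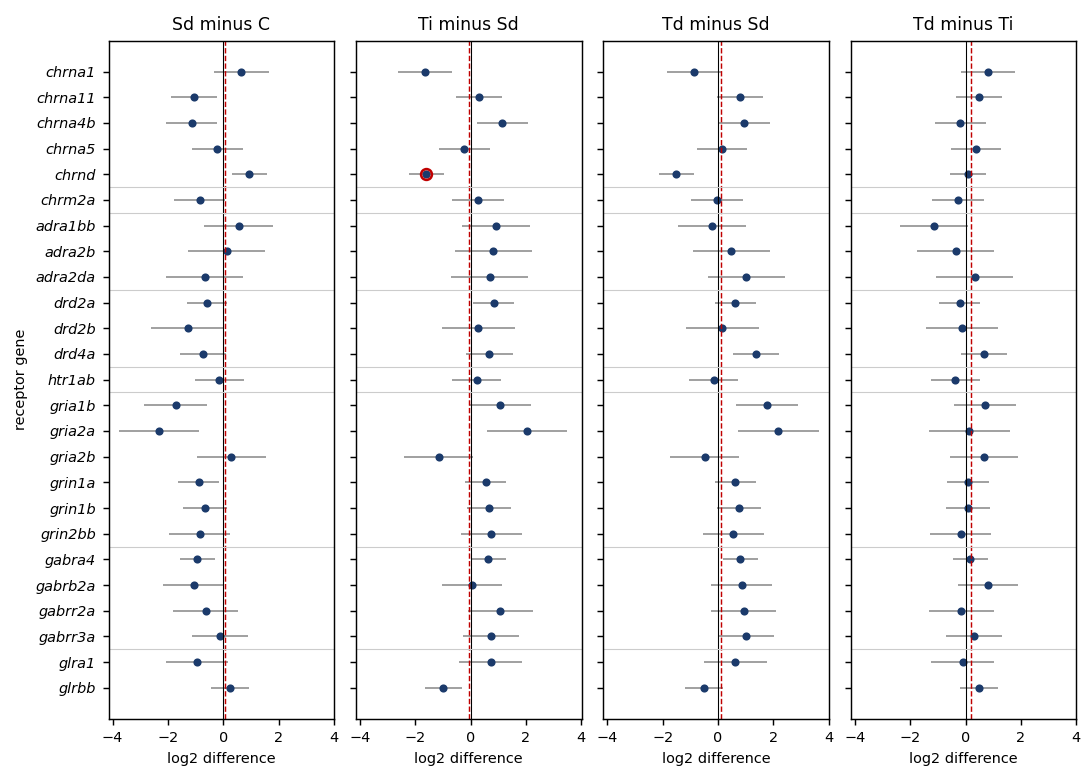
Log2 differences of 25 of the 27 tested receptor genes in 4 comparisons, as points with their confidence intervals, unadjusted, with a dashed line at the median of all transcripts and a red ring at an adjusted p under 0.05. Most points lie left of the dashed line in Sd minus C and right of it in Ti minus Sd and Td minus Sd, and the 1 ring marks chrnd in Ti minus Sd.

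Td minus Ti is the comparison whose treatments differ by the gradient alone, although the position on the slide differs with group as well. In it, none of the 27 receptor genes was called by limma, none had an unadjusted p under 0.05, and of all transcripts 0.0062% and, at the unadjusted threshold, 3.85% higher and 2.01% lower passed. The counts were 16 higher and 11 lower, where 64.9% of all transcripts were higher. The median was 0.09 where that of all transcripts was 0.18. The split depended on the scaling. It was 26 higher and 1 lower with the 50th percentile, where 8.29% of all transcripts were lower and their median was 0.95. It was 22 and 5 after quantile normalization, where 30.2% were lower, and 11 and 16 with the Ti and Td arrays exchanged. The groups did not overlap for gria1b, glrbb and chrna5, higher in Td, and adra1bb, lower in Td, against 9.63% and 2.45% of all transcripts. Of these, adra1bb, above background on 1 Ti and 2 Td arrays, had a difference of -1.14 ± 0.57 SE (limma, adjusted p = 0.774), which was -0.43 without Td replicate 2. The difference was 0.71 ± 0.51 SE for gria1b (adjusted p = 0.793). It was 0.48 ± 0.31 SE for glrbb (adjusted p = 0.785), 0.25 without Ti replicate 3, and turned in sign with no filter on dim probes. It turned with the combined table as well, where the Ti and Td columns are exchanged.

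By class, the 5 nicotinic genes had 4 higher and 1 lower in Td than in Ti, the 3 adrenergic genes 1 higher and 2 lower, and the muscarinic gene was lower. Of all transcripts, 64.9% were higher, and with the Ti and Td arrays exchanged each of these splits turns. Acetylcholinesterase, ache, which breaks down acetylcholine, was 0.47 ± 0.40 SE higher in Td than in Ti (limma, adjusted p = 0.819) and 1.04 ± 0.40 SE lower in Sd than in C (adjusted p = 0.156). The vesicular acetylcholine transporter slc18a3b, which fills synaptic vesicles, had differences of 0.34 and -0.87 in the same comparisons (adjusted p = 0.836 and 0.136).

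Genes that work beside the receptors were counted in lists. In Sd minus C, 3.7% of all transcripts were called, 53.5% were higher, and their median was 0.07. Of 11 tested genes for auxiliary subunits and scaffolds of glutamate receptors, 8 were lower and 3 higher in Sd than in C, with a median of -0.59, and cnih2, a cornichon that escorts AMPA receptors to the surface, was at least 2.53-fold lower in Sd (limma, adjusted p = 0.0238). Of 6 tested genes of glutamate transport and synthesis, 4 were lower and 2 higher, and glsa, the glutaminase that makes glutamate, was at least 3.95-fold lower (adjusted p = 0.0278). Of 17 tested genes of G protein coupled receptor signalling, 9 were lower and 8 higher, and arrb1, a beta-arrestin that switches such receptors off, was at least 5.51-fold lower (adjusted p = 0.0168). These 3 genes were above background on no Sd array and on 2, 3 and 3 C arrays. Their calls were lost with the 50th percentile, normexp or no filter, those of cnih2 and glsa also with quantile normalization, and each was lost without C replicate 3, Sd replicate 2 or Sd replicate 3. Those of cnih2 and glsa were lost without C replicate 1 too, and that of glsa without Sd replicate 1 or Td replicate 3. Of 8 genes of GABA synthesis, transport and breakdown, 6 were lower and 2 higher with none called. The list of glycine and GABA receptor anchors and transporters went the other way. Of its 4 tested genes, 3 were higher and 1 lower in Sd than in C (median 0.35), with none called. In Td minus Ti, none of the genes on these lists was called by limma, where 0.0062% of all transcripts were.

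Markers of other cells and of neurons differed between the groups as well. Of 10 tested neuronal markers, 9 were lower in Sd than in C (median -0.42, all transcripts 0.07). All 10 were lower in Ti than in C (median -0.68, all transcripts -0.003). In Td, 8 were lower than in C (median -0.30, all transcripts 0.18) and 8 higher than in Sd (median 0.18, all transcripts 0.10). In Ti minus Sd 5 were higher and 5 lower (median -0.03, all transcripts -0.06). In Td minus Ti all 10 were higher (median 0.38, all transcripts 0.18). Their summed scaled level ran from 108 to 237 on the C arrays, 91.6 to 150 on the Sd arrays, 96.6 to 114 on the Ti arrays and 88.8 to 194 on the Td arrays, and 7 of the 10 were above background on all 12 arrays. All 5 oligodendrocyte markers were lower in Sd, Ti and Td than in C (medians -0.88, -1.03 and -0.26), as were 6, 6 and 7 of 7 markers of radial glia and astrocytes (medians -0.82, -0.76 and -0.29). In Ti minus Sd the medians of these lists were -0.15 and -0.08. All 5 markers of microglia and leukocytes were higher in Sd, Ti and Td than in C, with summed levels of 83.3 to 91.4 in C and 142 to 273 in the other groups. Of 8 tested markers of photoreceptors and eye, 6, 7 and 8 were higher in Sd, Ti and Td than in C (medians 0.60, 0.66 and 0.49). All 4 tested pituitary markers were higher in Td than in Ti (median 2.28, all transcripts 0.18). None of these 4 was called there, and none was above background on all 12 arrays. The part of the cell makeup in the receptor differences was not tested.

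Of the genes caught by the name rule that are not receptors, htra1a, a secreted serine peptidase, differed the most. Its scaled signal was -0.96, -1.10 and -1.37 on the C arrays, 0.93, 1.09 and 0.59 on the Sd arrays, -0.53, -0.45 and -1.35 on the Ti arrays, and 0.06, 0.28 and -0.16 on the Td arrays. The Sd arrays lay above the other 9. By measured signal it was 2.01 ± 0.31 SE higher in Sd than in C (limma, adjusted p = 0.0144), where 3.7% of all transcripts were called. It was lower in Ti than in Sd (-1.65 ± 0.31 SE, adjusted p = 0.0363), where 0.979% were called. It was above background on 1 C array, 3 Sd arrays and 2 Ti arrays, so the size of the first difference is uncertain. The first call held in 6 of 10 other settings, among them the exchange of Ti and Td, which leaves Sd minus C unchanged. It held in 10 of 12 fits with 1 array left out, and was lost without C replicate 3 or Sd replicate 2. The second held in 4 of 10 settings and in 1 of 12 such fits, that without C replicate 1.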

How the data were processed

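RNA of pooled zebrafish brains was labelled with Cy3 and hybridized to 12 single-colour Agilent arrays. The authors deposited the scanner software's intensities, which Feature Extraction (10.7.3.1 per the file headers, another version in the methods) had corrected for background and spatial trend, without any scaling from array to array. The values that the authors deposited in the combined table and, under a log2 heading, in the tables of single samples are natural logs of that software's signal after background subtraction (equal within a tolerance of 0.001), unscaled, and in the combined table the 6 columns of Ti and Td match arrays of each other's group.

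The files name probes by accession. Of 43603 probes, 16568 were matched to a current symbol through RefSeq (GRCz12tu), the others were kept under the array's name, and the array's own build differs, so no coordinates are given. Spots marked as outliers were left out, the 75th percentile of each array was subtracted from log2 of the processed signal, probes were kept where 3 or more of the 12 arrays had them well above background, and probes of a gene were joined by their median. The 4 groups were fitted together with limma 3.58.1 (R 4.3.3, two-sided moderated tests, Benjamini-Hochberg over 16136 transcripts, each with 2 or more values per group). The script was tested on simulated data. Where a group was below background on all its arrays, a fold is a bound: the mean log2 level of the brighter group against the mean of, per array, whichever was higher, the faint signal or the dimmest one still well above background. Such a bound concerns the level of the faint group alone, applies to the main fit, and leaves aside the spread between arrays. Where the faint signals were the higher ones, it equals the measured difference, and for drd4a and drd2b it is given as that. Arrays of the brighter group that were not above background entered with their measured signal. The number of arrays limits the precision.

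Genes were named by a rule: every tested nicotinic, muscarinic and adrenergic receptor, every gene called, the 5 genes of lowest unadjusted p without overlap in each comparison, examples measured on all 12 arrays, and the alpha7 gene. Those that the text names beyond it (drd2b, htr1ab, gria2b, grin1b, grin2bb, gabrb2a, gabrr2a, glra1 and the untested genes) fill out their class and were chosen after their values were seen. Of the tested genes, 2 are counted but not reported here by name. The members, gene lists and tests were chosen with earlier results of these data known. The methods state 1-way tests and a percentile shift without its percentile. The scanner files hold median but no mean spot signals, so normexp was run on the median spot and background signals with an offset of 50.

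Replicate numbers are slides. After group means were removed, C and Sd arrays sharing a number correlated at 0.556, 0.256 and 0.286, and Ti and Td arrays at 0.130, 0.170 and -0.195. Of C and Sd arrays with different numbers, C replicate 2 with Sd replicate 3 reached 0.330, and the rest ran from -0.493 to 0.062. Replicates 1 of Sd and Td correlated at 0.402. These values do not settle which groups are paired by slide. Alternatives covered the percentile, quantile normalization, normexp, the filter on dim probes, the slide block, array weights, the brightest probe of a gene, the unmoderated test, the combined table (Ti and Td columns exchanged), the exchanged arrays and leaving out each array.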

Additional observations from a re-analysis of the deposited data

How the results depend on the processing

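Counts of receptor genes called were 1 over the 4 groups, 1 for Ti minus Sd and 0 for the other comparisons. The 4-group count and that of Ti minus Sd were both 0 with the 50th percentile, quantile normalization, normexp, no filter, only transcripts above background on all 12 arrays, and the series value table. The series value table holds the Ti and Td columns exchanged, so its Ti minus Sd compares the Td arrays with Sd. The same is true with the Ti and Td arrays exchanged, where Ti minus Sd had 0 and Td minus Sd had 1. Sd minus C had 1 with transcripts above background on all 12 arrays, 1 with the series value table, 2 with the slide as a block and 4 with array weights, where 15.5% of all transcripts were called. With the replicate block Td minus Sd had 1, against 0.483% of all transcripts, and with array weights the 4 groups had 3, Td minus C 1 and Td minus Sd 8, against 14.3%, 13.1% and 13%. Leaving out 1 array at a time, the count over the 4 groups ran from 0 to 1 (chrnd was called without C replicate 1 or Ti replicate 3), Sd minus C from 0 to 2 (2 without C replicate 2, 1 without Ti replicate 3), Ti minus Sd from 0 to 1 and Td minus Sd from 0 to 1. By the methods' unmoderated 1-way test, 1 of 27 receptor genes and 1.79% of all transcripts passed the study's threshold, and 1 and 243 passed after Benjamini-Hochberg adjustment.

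Receptor medians relative to all transcripts moved with the treatment of faint probes: with normexp to -0.063 for Sd minus C, 0.15 for Ti minus Sd and -0.033 for Td minus Sd, with no filter to -0.14 for Sd minus C, 0.043 for Td minus C, 0.17 for Ti minus Sd and 0.23 for Td minus Ti, with transcripts above background on all 12 arrays to -1.03 for Sd minus C, and with array weights to -0.58 for Ti minus C. For Ti minus C the settings ran from -0.58 to -0.051, the latter with no filter. Without 1 array at a time, Td minus C ran from -0.41 to -0.091 (without C replicate 3). Signs turned for gabrr3a in Ti minus C with the 50th percentile (-0.00064), chrna4b in Ti minus Sd with normexp (-0.091), and gria1b in Td minus Sd (-0.067) and glrbb in Td minus Ti (-0.41) with no filter. The series value table and the exchanged arrays carry the other assignment of Ti and Td. Td minus Ti turned with the former for chrna5 (-0.71) and glrbb (-0.20). With the latter it turned for adra1bb (1.14), chrna5 (-0.38), glrbb (-0.48) and gria1b (-0.71). Beyond that assignment, the causes were not tested. The block changed no other count of receptor genes. Faint signals, 3 arrays a group and pools of fish limit all of these values.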
